A study of Mus musculus with 6 samples.

Results

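The uptake of fatty acids and their storage as triglyceride were described in cultured mouse bone marrow stromal cells through 10 genes, Cd36, Lpl, Fabp4, Fabp5, Plin2, Plin1, Pnpla2, Lipe, Dgat2 and Adipoq. The members were every non-control probe on the arrays that carries 1 of these gene names, which gave 21 of the 56605 probes and 10 of the 26844 gene symbols. The KO group held 3 samples from NONMMUT002667-KO mice, in which a long non-coding RNA gene was knocked out, and the WT group held 3 samples from wild-type mice, each hybridised with Cy3 to 1 Agilent array. In both groups cells were freed from crushed femurs with collagenase A, sorted as Sca-1+ CD29+ CD45- CD11b- and grown in culture to the first passage. All 6 samples are labelled male. Strain, age, the way the gene was knocked out and the number of animals behind a sample are not given in the sources used here. Nothing states that the samples of a group came from separate cultures, so p-values measure only the spread between these samples, which may be technical in part. The description and the RNA extraction text speak of human blood, and the titles, source names and organism, which speak of mouse stromal cells, were followed.

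Fatty acids reach a cell either free or as triglyceride carried in lipoproteins. Lipoprotein lipase frees them at the vessel wall, CD36 takes them in, and the small FABP proteins carry them through the cytosol. The last step of triglyceride synthesis is made by DGAT enzymes, perilipins coat the droplet that holds the product, and the lipases ATGL and HSL release the fatty acids again. In marrow this set is best known from adipocytes, which arise from stromal cells, and lipid-loaded macrophages use much of it too. From that background the members were divided into 6 also made by macrophages (Cd36, Lpl, Fabp4, Fabp5, Plin2 and Pnpla2) and 4 that are highest in fat cells (Plin1, Lipe, Dgat2 and Adipoq). Both the members and this division were chosen with earlier results of these data known.

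Each array probe is 60 bases long, and a signal belongs to that stretch of the transcript and not to the whole gene. The stretches below are those on which the account of this pathway turns most. The Fabp4 and Lpl probes gave the second measurement of a gene, the Adipoq probe is the only one for the hormone of fat cells, and the Lipe probe is the one designed on a RefSeq transcript. They are written 5′ to 3′ in lower case, as the array files give them, with positions on the mouse build mm9.
Fabp4, chr3:10208442-10208501, minus strand: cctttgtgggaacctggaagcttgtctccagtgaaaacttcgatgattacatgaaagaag
Lpl, chr8:71425050-71425109, plus strand: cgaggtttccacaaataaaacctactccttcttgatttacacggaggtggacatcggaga
Adipoq, chr16:23157576-23157635, plus strand: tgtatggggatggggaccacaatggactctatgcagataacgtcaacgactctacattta
Lipe, chr7:26165828-26165887, minus strand: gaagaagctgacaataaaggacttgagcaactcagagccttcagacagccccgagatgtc

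The brightest probes of Plin1 and Lipe were of another kind. Both were designed on a clone and carry no RefSeq accession, and both end in a run of 6 identical bases. Their last 30 bases are printed with that run in capitals, because the probes of these genes disagreed, as described further on.
Plin1, end of the probe at chr7:86870028-86870087, minus strand: tcttgatacagttaggatgaggggTTTTTT
Lipe, end of the probe at chr7:26167986-26168045, minus strand: atgtcacaattccaggaattgcctAAAAAA

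All values are log2 signals relative to the 75th percentile of their own array, so a value of 0 is the level of that percentile, and a difference is KO minus WT of such values. Levels of different probes are not compared, because probes differ in brightness. The 6 arrays held 49.0% to 53.02% of non-control spots well above background in KO and 54.29% to 56.68% in WT, and their number limits the precision. They shared 1 slide and 1 scan, but all KO arrays lay in 1 row of the slide and all WT arrays in the other, so row and genotype cannot be told apart. Among the 22288 probes well above background on no array, 86.8% had a higher mean signal in KO, with a median difference of 0.56, so that the dim end of the scale was shifted between the groups. No probe carries the name of the knocked-out RNA, so the KO label was not checked on its target. Xist, the RNA of the inactive X chromosome, was well above background in KO replicate 1 (-0.36) and WT replicate 3 (-0.53) and was -6.84 to -5.86 on the other arrays. Eif2s3y, which lies on the Y chromosome, was not above background on those same arrays, at -6.32 in KO replicate 1 and -6.72 in WT replicate 3, against 1.04 to 1.17 elsewhere, so these samples go against their label of male, and each group held samples that differ in these sex-linked RNAs. Ptprc, which encodes the CD45 that the sort selected against, was well above background on all 6 arrays, at 3.52 ± 0.22 in KO and 3.32 ± 0.10 in WT (SD, n = 3 each; limma adjusted p = 0.519). Itgam, which encodes CD11b, was at 4.14 ± 0.10 in KO and 4.02 ± 0.14 in WT (limma adjusted p = 0.615). The sort markers Ly6a (Sca-1) and Itgb1 (CD29) were well above background too, with adjusted p of 0.911 and 0.766 by limma.

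Of the 21 probes, 16 were well above background on all 6 arrays and 3 on none, and 17 entered the fit of limma over 28606 probes, the Adipoq probe among them through its WT signals alone. None of the 17 passed an adjusted p of 0.05, which 0.0594% of all probes tested did. An unadjusted limma p under 0.05 was found for 8 of the 17 in the direction of KO and for 1 in the direction of WT, against a background of 8.24% and 7.28%. The 3 KO values lay above all WT values on 7 of the 17 and below them on 1, against a background of 12.6% and 9.57%. Differences above 0 were found on 15 of the 17, against 56.2% of all probes. Since 6 of the 17 probes belong to Lpl, these counts do not come from 17 separate genes. Each gene was therefore represented by 1 tested probe, the brightest on average over both groups. By that probe 0 of 10 genes passed the adjusted threshold, as 0.0787% of the 15256 genes tested did. An unadjusted limma p under 0.05 was found for 4 genes in the direction of KO and 1 in the direction of WT, against 6.88% and 8.08%. The KO values lay above the WT values in 4 of 10 genes and below them in 1, against 12.0% and 10.5% of all genes tested. The median difference of the 10 genes was 0.18, and that of all genes was 0.02.

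**Figure D1:**
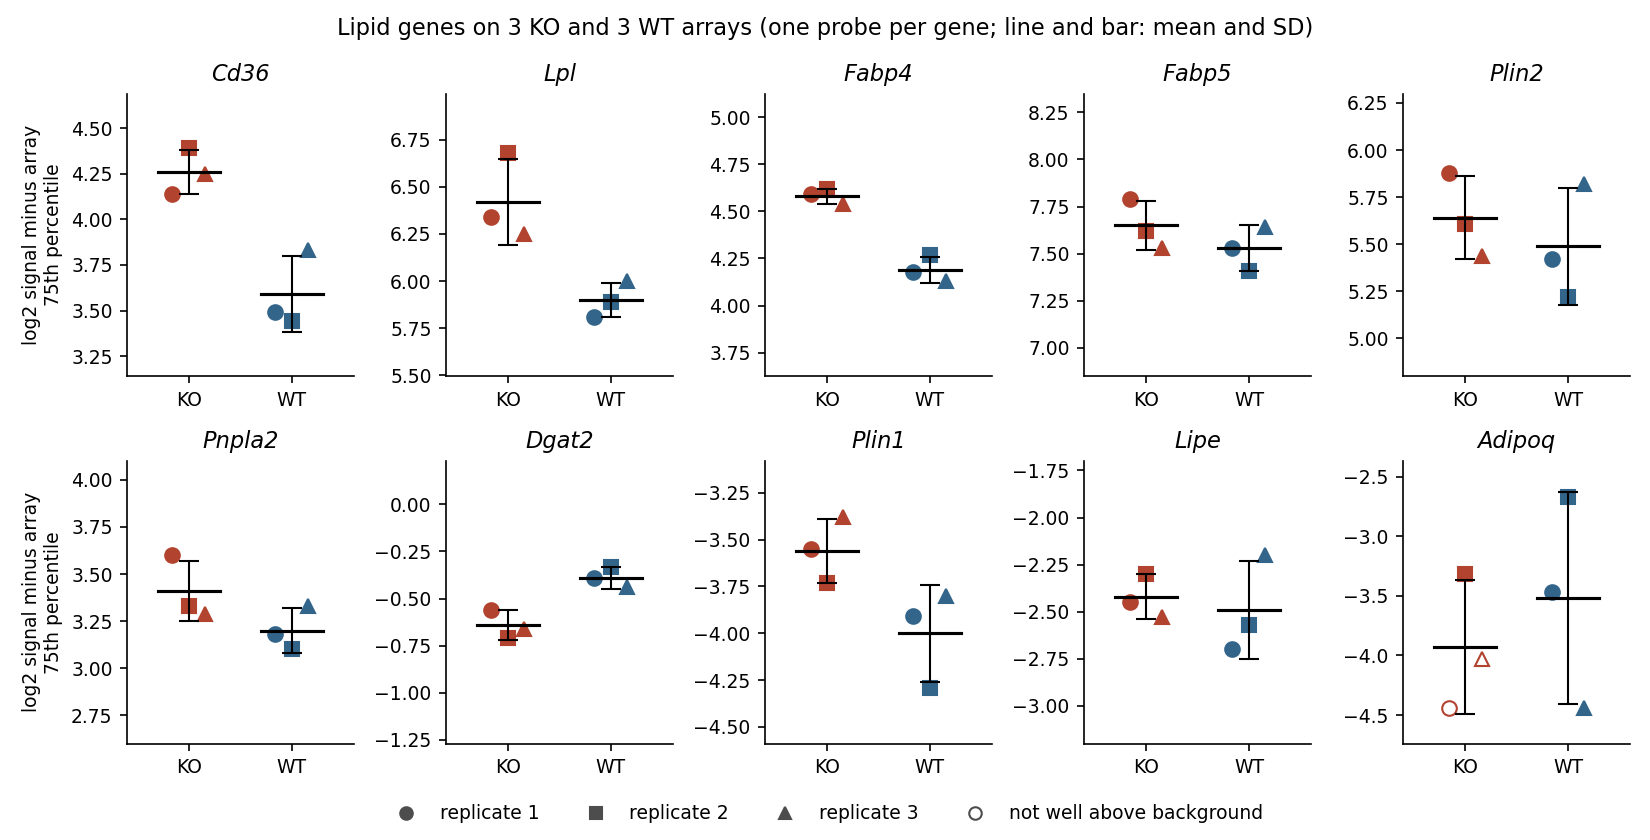
Log2 signal relative to the array's 75th percentile for the representative probe of each of the 10 genes, with 1 point per array, KO left of WT, a line at the mean and bars of 1 SD over 3 arrays, and a scale of its own for each gene. Open symbols mark arrays on which the probe was not well above background. The KO points lie above all WT points for Cd36, Lpl, Fabp4 and Plin1, below them for Dgat2, and among them for the other genes.

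Cd36, the membrane receptor that takes up long-chain fatty acids and, in macrophages, oxidised lipoproteins, had the largest difference among the representative probes. It was at 4.14, 4.39 and 4.25 in KO replicates 1 to 3, against 3.49, 3.44 and 3.83 in WT replicates 1 to 3. Every KO value lay above every WT value, and the highest WT sample was replicate 3. The means were 4.26 ± 0.12 in KO and 3.59 ± 0.21 in WT (SD, n = 3 each), a difference of 0.67 (SE 0.13, 95% interval 0.37 to 0.98). That is 1.6-fold, with an unadjusted p of 0.00134 and an adjusted p of 0.0926 by limma, so it did not pass the threshold. With a variance trend in the same fit the adjusted p was 0.0493, and with KO replicate 1 and WT replicate 3 left out the difference was 0.85 with an adjusted p of 0.127. The probe lies at chromosome 5, 17288600 to 17288659 on the minus strand (mm9). Exons of that build were not used here, so no exon or UTR is named for any probe.

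Lpl encodes lipoprotein lipase, which frees fatty acids from circulating triglyceride and is secreted by fat cells, muscle and macrophages. Its brightest probe was at 6.34, 6.68 and 6.25 in KO replicates 1 to 3 and at 5.81, 5.89 and 6.00 in WT replicates 1 to 3 (chromosome 8, 71430267 to 71430326, plus strand). The groups did not overlap, and KO replicate 2 stood highest. The means of 6.42 ± 0.23 in KO and 5.90 ± 0.09 in WT differed by 0.52 (SE 0.13, 95% interval 0.22 to 0.83; 1.43-fold), and this did not pass the threshold (limma adjusted p = 0.141). Lpl could be read along its gene, because the 6 probes span 24.73 kb. All 6 differences were above 0, from 0.30 to 0.70, and an unadjusted limma p under 0.05 was found for 4 of them, none with an adjusted p under 0.05. The stretch printed above, 19.51 kb from the first probe, was at 4.65, 4.87 and 4.36 in KO and at 4.10, 4.00 and 4.18 in WT, again with no overlap (difference 0.53, limma adjusted p = 0.155). A clone probe 2.80 kb from the first had the largest difference of the 6, with 2.30, 2.68 and 2.05 in KO and 1.32, 1.68 and 1.93 in WT (0.70, limma adjusted p = 0.196). On the remaining 3 probes the groups overlapped, with differences of 0.61, 0.30 and 0.38 at 0, 7.77 and 14.11 kb. The probes at 0, 2.80 and 7.77 kb carry no RefSeq accession, while those at 14.11, 19.51 and 24.73 kb do. KO replicate 2 was the highest array on all 6 probes. Without it, the difference of the brightest probe was 0.39 (limma adjusted p = 0.194). The 6 probes share the same 6 RNA samples and are not replicates of the comparison.

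**Figure D2:**
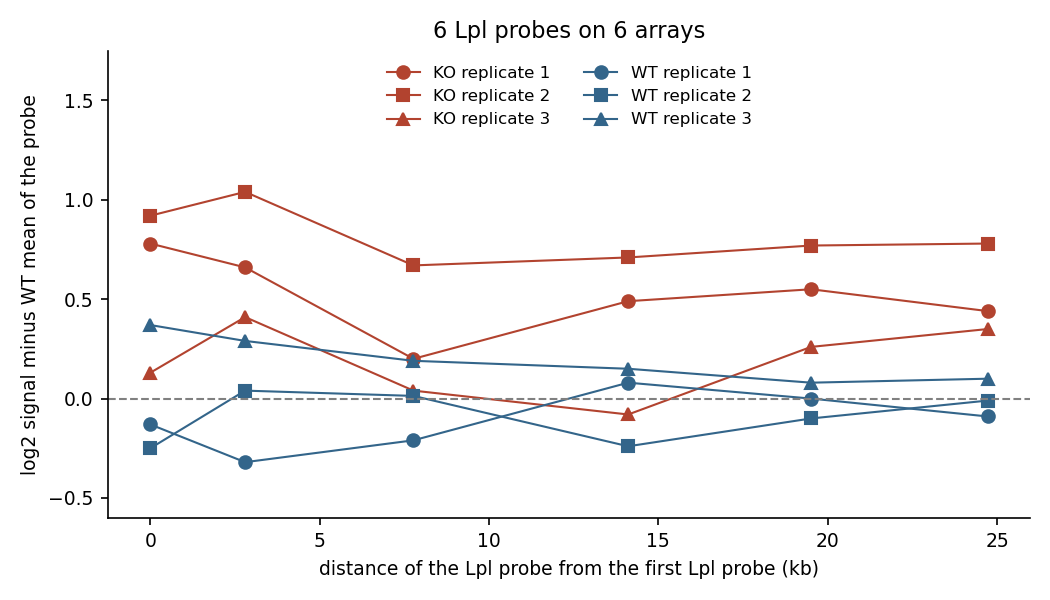
Log2 signal minus the WT mean of the same probe on the 6 Lpl probes, placed by their distance in kb from the first probe along the gene, with 1 line per array, KO in red and WT in blue. KO replicate 2 is the highest array at every position, and the groups separate at 2.80, 19.51 and 24.73 kb.

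Inside the cell fatty acids are bound by FABP proteins, of which Fabp4 is typical of adipocytes and is also made by macrophages and endothelial cells. Fabp4 was at 4.59, 4.62 and 4.54 in KO replicates 1 to 3 and at 4.18, 4.27 and 4.13 in WT replicates 1 to 3. The samples of each group lay close together, and the lowest KO sample was above the highest WT sample. The means were 4.58 ± 0.04 in KO and 4.19 ± 0.07 in WT, with a difference of 0.39 (SE 0.08, 95% interval 0.21 to 0.57; 1.31-fold). This did not pass the threshold (limma adjusted p = 0.0945), whereas with the variance trend the adjusted p was 0.0424. The second Fabp4 probe, the stretch printed above, was at 2.12, 2.14 and 1.90 in KO and at 1.81, 1.85 and 1.74 in WT. Here too the groups did not overlap, and the difference was 0.25 (95% interval 0.04 to 0.47; limma adjusted p = 0.262). The brighter probe lies at chromosome 3, 10204452 to 10204511 on the minus strand.

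Fabp5, a family member made by many cell types and a neighbour of Fabp4 on chromosome 3, was measured by 1 probe (10016185 to 10016244, plus strand). It was at 7.79, 7.62 and 7.53 in KO replicates 1 to 3, against 7.53, 7.41 and 7.64 in WT replicates 1 to 3. The groups overlapped, with KO replicate 1 and WT replicate 3, the arrays with Xist signal, as the highest. The means of 7.65 ± 0.13 in KO and 7.53 ± 0.12 in WT differed by 0.12, with a 95% interval of -0.12 to 0.36 (limma adjusted p = 0.633). FABP transcripts are similar in sequence and have processed copies, and signal from a related transcript was not told apart here.

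Plin2 encodes the coat protein found on the droplets of nearly all cells, and its protein is stable when lipid is present. Its brighter probe was at 5.88, 5.61 and 5.44 in KO replicates 1 to 3, against 5.42, 5.22 and 5.82 in WT replicates 1 to 3 (chromosome 4, 86302847 to 86302906, minus strand). The groups overlapped, and the order of the arrays followed that of Fabp5, with KO replicate 1 and WT replicate 3 at the top. The means were 5.64 ± 0.22 in KO and 5.49 ± 0.31 in WT, a difference of 0.16 (95% interval -0.28 to 0.59; limma adjusted p = 0.742). It was 0.02 without WT replicate 2 and 0.32 without WT replicate 3. A second Plin2 probe was at 1.36, 1.14 and 0.75 in KO and at 1.00, 0.73 and 1.36 in WT. Its difference was 0.06 (95% interval -0.44 to 0.55; limma adjusted p = 0.93). Of the 10 representative probes, Fabp5 and Plin2 were the 2 whose highest arrays were both arrays with Xist signal. With Xist signal as a term in the fit, the difference was 0.12 for Fabp5 and 0.16 for Plin2 (limma adjusted p = 0.51 and 0.498). The SE of Plin2 was 0.18 without that term and 0.10 with it. The term itself was not tested, nor was the part of those samples' deviation from their label in the values.

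Plin1 is the droplet coat of adipocytes, which controls the access of lipases to the stored fat. Its 3 probes did not give 1 answer. The clone probe with the T run was well above background on all 6 arrays, at -3.55, -3.73 and -3.38 in KO replicates 1 to 3, against -3.91, -4.29 and -3.80 in WT replicates 1 to 3. The groups did not overlap, and the difference was 0.44 (SE 0.15, 95% interval 0.08 to 0.81; limma adjusted p = 0.25). With normexp and quantile normalization the difference was 0.21 (limma adjusted p = 0.235). The probe on the RefSeq transcript was well above background on no array, at -6.30, -6.22 and -5.82 in KO and -5.58, -6.22 and -6.73 in WT, with overlapping groups, and was not tested. The remaining probe was also above background on no array. Its mean was -6.09 in KO and -6.64 in WT, close to the medians of all such dim probes, which were -6.10 in KO and -6.65 in WT. The difference of Plin1 thus rests on a single dim probe that carries no RefSeq accession. Probes above background on no array had a median difference of 0.56. The part of that shift at the dim end in the 0.44 of Plin1 was not tested.

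The release of stored fatty acids begins with Pnpla2, which encodes ATGL, the lipase that removes the first fatty acid from a triglyceride in fat cells and many other cells. Pnpla2 was at 3.60, 3.33 and 3.29 in KO replicates 1 to 3 and at 3.18, 3.10 and 3.33 in WT replicates 1 to 3 (chromosome 7, 148645928 to 148645987, plus strand). WT replicate 3 lay within the KO values. The means of 3.41 ± 0.16 in KO and 3.20 ± 0.12 in WT differed by 0.20 (95% interval -0.06 to 0.47; limma adjusted p = 0.444).

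Lipe encodes hormone-sensitive lipase, the next enzyme of the release and the target of adrenergic signals in fat. Its RefSeq probe was at -4.59, -4.71 and -4.86 in KO replicates 1 to 3 and at -5.16, -4.24 and -4.60 in WT replicates 1 to 3. It was well above background in WT replicate 2 alone, so it gave neither a test nor a fold. A further Lipe probe was above background on no array. The clone probe with the A run was above background on all 6, at -2.45, -2.30 and -2.53 in KO and -2.70, -2.57 and -2.20 in WT. Here the groups overlapped, with a difference of 0.06 and a 95% interval of -0.28 to 0.40 (limma adjusted p = 0.884), and its sign turned to -0.0062 with normexp and quantile normalization. As with Plin1, the probe that was above background on all arrays carries no RefSeq accession. The further Lipe probe and the remaining Plin1 probe, both above background on no array, carry none either.

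Dgat2 encodes the acyltransferase that attaches the last fatty acid in triglyceride synthesis, and it was the 1 gene with all KO values below the WT values. It was at -0.56, -0.71 and -0.66 in KO replicates 1 to 3, against -0.39, -0.33 and -0.44 in WT replicates 1 to 3 (chromosome 7, 106302215 to 106302274, minus strand). The means were -0.64 ± 0.08 in KO and -0.39 ± 0.06 in WT, with a difference of -0.26 (SE 0.08, 95% interval -0.45 to -0.07; 1.2-fold lower). It did not pass the threshold (limma adjusted p = 0.206).

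Adipoq encodes adiponectin, a hormone that in adult tissue comes almost only from fat cells and that also marks marrow stromal cells committed to the adipocyte lineage. It was at -4.44, -3.32 and -4.03 in KO replicates 1 to 3, against -3.47, -2.67 and -4.44 in WT replicates 1 to 3. The probe was well above background in 1 of 3 KO samples, replicate 2, and in all 3 WT samples. It thus entered the fit through WT alone, and 2 of its 3 KO values are signals not well above background. On the signals as measured the difference was -0.41 with a 95% interval of -1.54 to 0.73 (limma adjusted p = 0.742), which gives no level of Adipoq in KO. Without WT replicate 2 the difference was 0.02, so its sign rests on that sample. The lowest signal called well above background lay between -4.15 and -3.60 on KO arrays and between -4.62 and -4.41 on WT arrays, so that the same signal could be called above background in WT and not in KO.

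**Figure D3:**
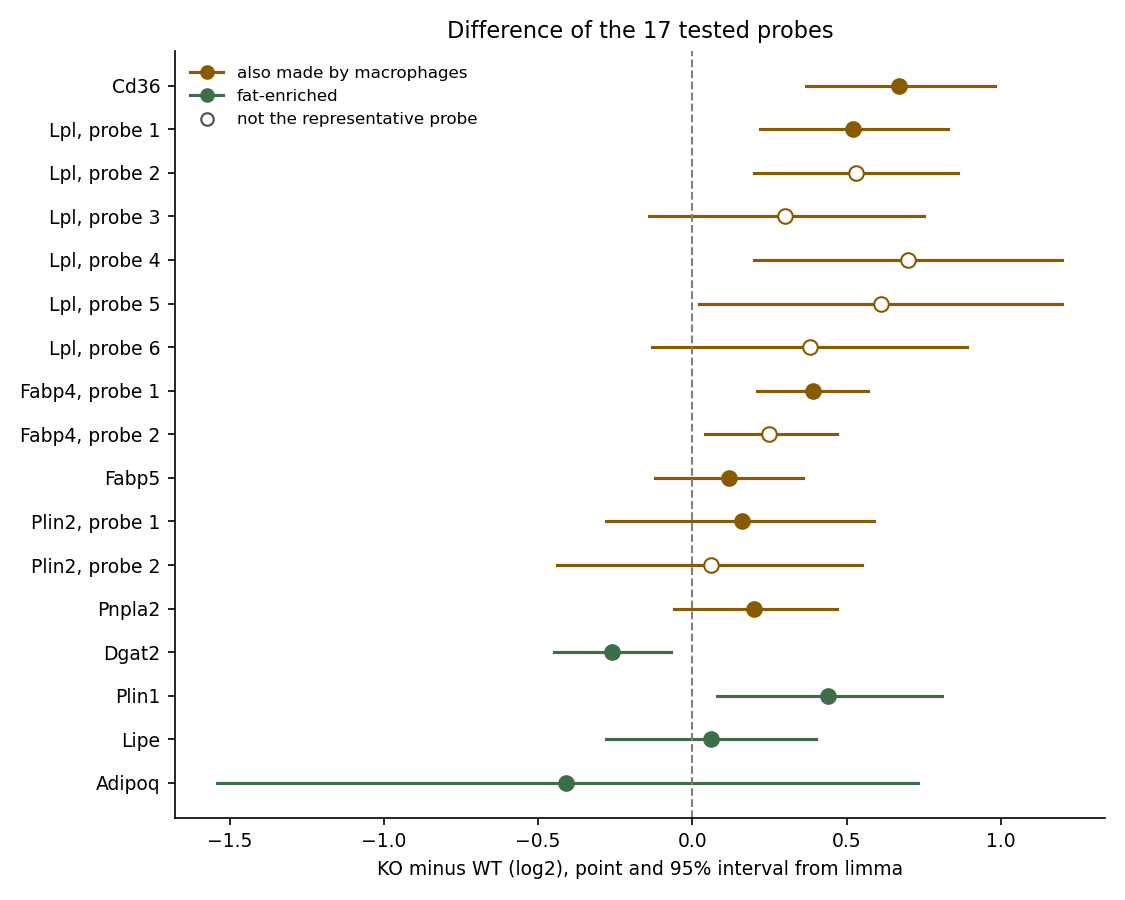
KO minus WT difference on the log2 scale for the 17 tested probes, as a point with its 95% interval from limma, with the genes also made by macrophages in brown, the fat-enriched genes in green, and open points for probes that do not represent their gene. All 13 brown points lie above 0, from 0.06 to 0.70, while the 4 green points run from -0.41 for Adipoq to 0.44 for Plin1.

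Set side by side, the 6 genes shared with macrophages all had differences above 0, against 55.8% of all genes, from 0.12 to 0.67 with a median of 0.30. In 3 of the 6, Cd36, Lpl and Fabp4, all KO values lay above the WT values, against 12.0% of all genes. Of the 4 fat-enriched genes, Plin1 had all KO values above and Dgat2 all below the WT values, against 12.0% and 10.5% of all genes. The 3 of them above background on all 6 arrays, Plin1, Lipe and Dgat2, had a median of 0.06. With the signals of Adipoq as measured the median was -0.10, and it was 0.02 without WT replicate 2, so it has no settled sign. Averaged over the 6 shared genes, the arrays were at 5.22 to 5.39 in KO and 4.89 to 5.12 in WT, and over the 4 fat-enriched genes at -2.75 to -2.52 in KO and -2.72 to -2.46 in WT. Whether the difference itself differs between the classes was not tested, and Plin1, Lipe and Adipoq were measured near background. With KO replicate 1 and WT replicate 3 left out, which go against their label, the differences were 0.61 for Lpl, 0.36 for Fabp4, 0.21 for Plin2, 0.17 for Pnpla2 and 0.11 for Fabp5. In the same fit the difference was 0.54 for Plin1, 0.22 for Lipe, -0.33 for Dgat2 and -0.61 for Adipoq, and no gene of the 10 passed the adjusted threshold.

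Markers of the cells that could carry these transcripts were read on the same arrays. Of 12 adipocyte markers, 4 were well above background on all 6 arrays, and Cidec, Cidea, Pck1, Thrsp and Tshr were so on none. Cidec, Cidea and Plin4 of this list also stand in the droplet list, and Adrb3 in the lipolysis list. The 4 tested ones, which included the hormones Lep (difference 0.17, limma adjusted p = 0.766) and Retn (0.18, limma adjusted p = 0.646), averaged -2.15 to -1.92 in KO and -2.13 to -2.01 in WT. The adipocyte and endothelial lists thus held defining markers near the floor of the arrays, since Tek, Tie1 and Esam were above background on no array either. Of 26 macrophage markers, 25 were well above background on all 6 arrays, although the sort selected against CD45 and CD11b. Differences above 0 were found for 20 of the 26, against 55.8% of all genes, with a median of 0.12, and none passed the adjusted threshold. The mean level of the list overlapped between the groups, with array means of 4.20 to 4.36 in KO and 4.06 to 4.23 in WT. The smallest p-values in the list were those of Cd14, a receptor for bacterial lipopolysaccharide (0.32, limma adjusted p = 0.231), and Trem2, a lipid-sensing receptor of macrophages (0.22, limma adjusted p = 0.235). On both, as on 5 of the 26, all KO values lay above the WT values, against 12.0% of all genes. An unadjusted limma p under 0.05 in the direction of KO was found for 2 of the 26, against 6.88% of all genes. Of 7 tested osteoclast markers 4 lay above 0 and 3 below, with a median of 0.23, or 0.13 without KO replicate 2. The array means of this list overlapped, at -0.23 to 0.09 in KO and -0.29 to 0.07 in WT. Ocstamp had a difference of 0.43 and Atp6v0d2 one of 0.37, but Ctsk had one of -0.40 (limma adjusted p = 0.252, 0.226 and 0.238). Of 10 endothelial markers 2 were above background on all 6 arrays. Of the 6 tested ones 2 lay above 0 and 4 below, against 55.8% of all genes above 0. Their median was -0.15, or 0.07 with only the 2 above background on all arrays. Ramp2 (-0.56), Pecam1 (-0.29) and Robo4 (-0.83) entered the fit through WT alone (limma adjusted p = 0.322, 0.489 and 0.65).

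Measured against the mean of those 26 macrophage markers in place of the array's percentile, Cd36 was 0.58 higher in KO (limma adjusted p = 0.178), Lpl 0.43 (adjusted p = 0.252) and Fabp4 0.30 (adjusted p = 0.314). On that scale Fabp5, Plin2 and Pnpla2 had differences of 0.03, 0.06 and 0.11, and all genes a median of -0.07. Stromal markers ran the other way. Of 16, 4 had differences above 0 and 12 below, against 55.8% of all genes above 0. The median was -0.16, and array means were 1.90 to 2.26 in KO and 2.22 to 2.49 in WT. The part of these macrophage and stromal levels in the members' values was not tested. Col1a1, the main collagen chain of bone, had a difference of -0.90 (limma adjusted p = 0.141), and Nt5e, which encodes the stromal antigen CD73, one of -1.21 (limma adjusted p = 0.0932). Against the stromal mean the median of all genes moved to 0.40, and the differences were 1.06 for Cd36, 0.90 for Lpl, 0.82 for Plin1, 0.77 for Fabp4 and 0.12 for Dgat2. Those of Cd36, Lpl, Plin1 and Fabp4 passed the adjusted threshold of limma on that scale, as did 6.23% of all genes in the direction of KO. Every gene there shares the error of the subtracted mean, with an SE of 0.24 for each of the 10 members, so nothing is read from these calls about the members. In bulk RNA, more or fewer cells of a type and more or less of an RNA per cell cannot be told apart.

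**Figure D4:**
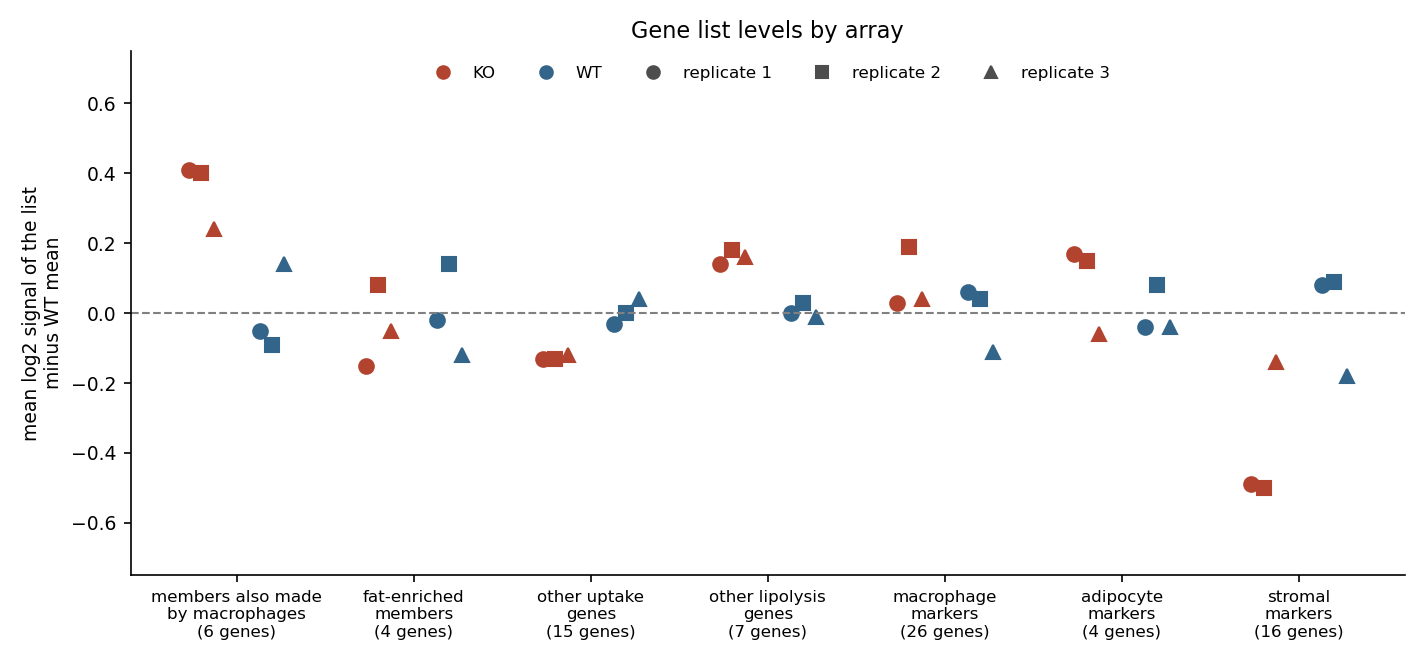
Mean log2 signal of each gene list minus the list's WT mean, with 1 point per array and the KO arrays (red) left of the WT arrays (blue). The 6 genes shared with macrophages and the lipolysis list have all KO points above the WT points, the fatty acid uptake list has them below, and the fat-enriched members and the macrophage, adipocyte and stromal marker lists overlap.

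The wider pathway was split. Among 15 other genes of fatty acid uptake, 4 had differences above 0 and 11 below, against 55.8% of all genes above 0. The median was -0.07, and none passed the adjusted threshold. The array means of this list were 1.04 to 1.05 in KO and 1.14 to 1.21 in WT. Vldlr, the receptor for triglyceride-rich lipoproteins, was at 1.45, 1.62 and 1.68 in KO replicates 1 to 3 and at 2.18, 2.74 and 2.25 in WT replicates 1 to 3. It stood opposite to Cd36 and Lpl, with no overlap and a difference of -0.81 (SE 0.16; limma adjusted p = 0.0984). Fabp3, the fatty acid carrier of heart and muscle, was at 3.10, 2.23 and 2.91 in KO and at 3.24, 3.27 and 3.64 in WT (-0.64, limma adjusted p = 0.277). The groups of Fabp3 did not overlap, in the opposite direction to Fabp4. Slc27a1, of the same list, had a difference of 0.28 (limma adjusted p = 0.438).

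All 7 tested genes of the 10 in the lipolysis list had differences above 0, against 55.8% of all genes, though that of Adrb3 was only 0.0069 (limma adjusted p = 0.983). The median was 0.15, with array means of 0.80 to 0.84 in KO and 0.65 to 0.69 in WT. Mgll, the lipase that takes off the last fatty acid, was at 3.73, 3.50 and 3.41 in KO replicates 1 to 3 and at 3.30, 3.15 and 3.13 in WT replicates 1 to 3, without overlap (0.35, SE 0.11; limma adjusted p = 0.203). Abhd5, the activator protein of ATGL, was at 1.01, 0.86 and 0.98 in KO and at 0.78, 0.72 and 0.78 in WT (0.19, limma adjusted p = 0.3). Neither passed the threshold, and the other lists were split. In triglyceride synthesis 5 of 10 tested genes lay above 0, among them Agpat1 at 0.09 (limma adjusted p = 0.782). The 5 below included Lpin3, a phosphatidate phosphatase, at -0.36 (limma adjusted p = 0.257) and Gpat3 at -0.35 (limma adjusted p = 0.302). Of 8 tested droplet genes 3 lay above 0 and 5 below. Bscl2, which encodes the droplet-forming protein seipin, had a difference of -0.23 (limma adjusted p = 0.308) and Plin3 one of 0.20 (limma adjusted p = 0.335). Of 7 genes that handle cholesterol and its export 3 lay above 0. Among them were Soat1, which esterifies cholesterol for storage (0.25, limma adjusted p = 0.306), and Abcg1 (0.19, limma adjusted p = 0.322). The 4 below 0 included Nr1h2 (-0.09, limma adjusted p = 0.579).

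The factors that switch on fat genes were split as well, with 4 of 8 above 0. Pparg, the nuclear receptor that drives Fabp4, Cd36, Lpl and Plin1 in adipocytes and is present in macrophages too, was at 2.92, 3.11 and 2.79 in KO replicates 1 to 3, against 2.71, 2.64 and 2.67 in WT replicates 1 to 3. The KO values lay above the WT values, by 0.27 (SE 0.10), which did not pass the threshold (limma adjusted p = 0.273). Cebpd, an early factor of adipocyte differentiation, had a difference of -0.22 and Klf15 one of -0.33 (limma adjusted p = 0.363 and 0.544).

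Because PPARγ and C/EBP factors are known to drive several of these genes, the 250 bases before a transcription start were searched for their motifs. RefSeq promoter windows of GRCm38.p6 were used, of which 7 were at hand for 6 members. Fabp4, Fabp5, Lpl and Dgat2 had no window and were not searched. The full PPAR element in its direct-repeat form, 2 copies of AGGTCA in the same orientation with 1 base between them, on either strand, was in 0 of the 7 windows and in 0.0335% of all 32851. An exact match is so rare that its absence from 7 windows says nothing about these genes. The single half-site AGGTCA, which the full element contains and which many nuclear receptors share, was in the windows of Cd36 and Plin2, 2 of 7, against 14.0% of all windows. The C/EBP-like motif TTGCNNAA, also searched on both strands, was in 1 of 7, that of Plin1, against 9.56%. Cd36 and Plin1 are printed 5′ to 3′ on the gene's strand, with the half-site and the C/EBP-like motifs in capitals, since their groups did not overlap on the arrays.
Cd36, chr5:17835897-17836146, minus strand: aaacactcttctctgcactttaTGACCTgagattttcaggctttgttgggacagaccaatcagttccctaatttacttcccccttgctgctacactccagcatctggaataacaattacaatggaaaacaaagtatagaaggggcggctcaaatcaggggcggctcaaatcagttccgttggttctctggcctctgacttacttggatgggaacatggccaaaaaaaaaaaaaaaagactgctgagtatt
Plin1, chr7:79732777-79733026, minus strand: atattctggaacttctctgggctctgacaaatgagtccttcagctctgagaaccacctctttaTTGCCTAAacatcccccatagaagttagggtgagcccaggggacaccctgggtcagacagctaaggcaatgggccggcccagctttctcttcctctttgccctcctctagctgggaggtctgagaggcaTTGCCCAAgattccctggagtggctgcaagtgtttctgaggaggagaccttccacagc
The half-site of Cd36 begins 228 bases before the start used here and reads as TGACCT, its reverse complement. That start lies inside the Cd36 gene, which spans 17781690 to 17888959 on chromosome 5, and no other Cd36 start was searched. The motifs of Plin1 begin 187 and 58 bases before the start used here. That start too lies inside the gene, which spans 79721164 to 79732904 on chromosome 7. The motif at 58 bases falls within that span, and no other Plin1 start was searched. A match is a run of letters and not a binding site, and no binding was measured here.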

How the data were processed

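The deposited intensity values are Agilent Feature Extraction's processed signals, corrected for background, 1 colour, per the file headers, which name version 10.7.1.1 (the submitters' processing notes name 9.1). The deposited series table holds log2 values and was an alternative. Its columns correlated at 0.9999 to 1.0 with those of their own arrays over 25591 probes and hold nearly the same sorted values, each with a median of 6.15. Here the 75th percentile of log2 processed signal over an array's non-control probes was subtracted, outlier spots (49 to 131 per array) were left out and spots of a probe averaged. Tested probes were well above background on all 3 arrays of KO or of WT, with at least 2 values in each group. KO was compared with WT by limma 3.58.1 in R 4.3.3 (lmFit, eBayes, two-sided, 4 residual and 2.65 prior degrees of freedom), with Benjamini-Hochberg adjustment over all 28606 probes and a threshold of 0.05. With 3 against 3 an exact permutation p cannot go below 0.1. On simulated data for this comparison, 140 of 200 probes changed by a log2 of 1 were recovered with 7 false calls, and 187 of 200 changed by 2 with 8 false calls. Changes as small as those of the member probes, from -0.41 to 0.70, were not simulated, so their recovery is not known.

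Members were matched by the gene name in the files. Other probes were named through a RefSeq table of GRCm38.p6, 33890 by accession, 9468 by symbol and 488 by synonym, while 2105 kept the file's name and 10654 had none. Every member probe was named. Genes given with a difference from a list were among its 3 tested genes with the smallest unadjusted p, by representative probe. Not all 3 were named for every list. The sort markers, Xist and Eif2s3y complete the named genes. Members and lists were chosen with earlier results of these data known. No set was tested. Same-numbered KO and WT samples deviated from their group means with r of 0.056, 0.154 and -0.032. Differently numbered ones had r of -0.241 to 0.185. With so few samples these values cannot show whether same-numbered samples were handled together. The main fit used no pairing, and a replicate block was an alternative. Alternatives changed the normalization, scaling, probe filter, probe summary and variance model, or left out arrays.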

Additional observations from a re-analysis of the deposited data

How the results depend on the processing

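Of 417 pairs of a result and an alternative, 385 were counted as the same. For a gene this meant the same direction and side of the threshold. For a list median it meant a move smaller than the SD of the list's array means within groups. For a count of probes it meant an equal count or a ratio of at most 1.5. The 17 probes past the threshold became 194 with normexp and quantile normalization, 220 with a variance trend and 9 with only probes above background on all 6 arrays. They became 0 by limma without a filter on dim probes (18002 at an unadjusted p under 0.05), 0 with the replicate block (4647) and 0 with an Xist term (4616), and 2 to 31 with 1 array left out (2 without WT replicate 1, 4 without WT replicate 2, 31 without WT replicate 3). The cause was not tested. Member probes past the threshold stayed at 0 except 2 with the variance trend, Cd36 (0.67) and Fabp4 (0.39). Relative to the stromal mean, Cd36 (1.06), Fabp4 (0.77), Lpl (0.90) and Plin1 (0.82) passed and Dgat2 turned to 0.12. By construction that scale moves every gene by the stromal difference, and 6.23% of all genes passed on it in the direction of KO. Lipe turned to -0.0062 with normexp and quantile normalization and to -0.03 relative to the macrophage mean, and ran from -0.04 to 0.21 with 1 array left out, as did Adipoq from -0.86 to 0.02. The fat-enriched median became 0.06 with probes above background on all arrays (3 genes tested) and ran from -0.15 to 0.02 with 1 array left out, and Plin1 became 0.21 with normexp and quantile normalization. The lipolysis median became 0.19 without the arrays with Xist signal, 0.13 with a gene's probes averaged, and 0.10 to 0.20 with 1 array left out. Under that last choice the median of fatty acid uptake ran from -0.11 to -0.02, of lipid efflux from -0.05 to 0.08, of stromal markers from -0.35 to -0.13, of osteoclast markers from 0.13 to 0.30 and of endothelial markers from -0.43 to 0.03. The replicate block, which is also the slide column, changed no member's call, with adjusted p of 0.187 for Cd36, 0.179 for Fabp4 and 0.21 for Lpl by limma. Slide or scan as a block was not run, since there was 1 of each. Signals near background limit Plin1, Lipe and Adipoq.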
